A study of Mus musculus with 4 samples.

Results

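The genes described here are 8 transcription factors of cartilage, tendon and bone in the mouse intervertebral disc: Sox5, Sox6, Sox9, Scx, Mkx, Runx1, Runx2 and Runx3. They were chosen by symbol, and each of the 8 names matched 1 row of the 32285 genes in the deposited tables. Single cell RNA sequencing had been done on 4 libraries of tail discs, 2 of control discs and 2 of discs punctured with a needle, with 1 library of each kind in each of 2 rounds. All mice were wildtype C57BL/6 females of 12 weeks. Control discs were unpunctured and came from tail levels CC12/13 to CC16/17, and injured discs had been punctured from both sides with a 30 G needle at levels CC5/6 to CC9/10 of the same animals and were taken at 7 days. Tail level and injury therefore cannot be told apart in any comparison. Discs of 6 mice, 30 per group, were pooled into 1 suspension per the labels, which do not say whether this number holds for each round. A p-value below measures only the spread between these libraries.

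SOX9 is the factor that makes and keeps cartilage cells, and SOX5 and SOX6, which lack an activation domain, help it to hold open the enhancers of cartilage matrix genes. Scleraxis (Scx) and Mohawk (Mkx) mark and drive tendon and ligament cells, and both act in the outer annulus fibrosus, the fibrous ring around the disc. RUNX proteins bind DNA with the partner CBFB: RUNX2 directs bone formation and cartilage hypertrophy, RUNX1 acts in blood stem cells and in cartilage, and RUNX3 is best known from T cells, other immune cells and sensory neurons.

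On the GRCm38 assembly, to which the authors' mm10 reads belong, Sox5 lies at chr6:143828425-144781977 (minus strand), Sox6 at chr7:115470872-116038796 (minus), Sox9 at chr11:112782224-112787760 (plus) and Scx at chr15:76457452-76459458 (plus). Runx1 lies at chr16:92601466-92826149 (minus), Runx2 at chr17:44495987-44814797 (minus) and Runx3 at chr4:135120652-135177990 (plus). RefSeq promoter windows, which run from 250 bases before to 50 bases after a transcript start, were at hand for Sox5, Sox6 and the 3 Runx genes. The Runx genes are shown because 1 window of each holds the same run of 18 bases, in capitals below, which contains 2 copies of the RUNX core motif ACCACA. Each stretch is 30 bases long and is given 5′ to 3′ on the gene's strand, at chr16:92826025-92826054 for Runx1, chr17:44814583-44814612 for Runx2 and chr4:135120503-135120532 for Runx3 (GRCm38.p6).
Runx1: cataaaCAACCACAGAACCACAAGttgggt
Runx2: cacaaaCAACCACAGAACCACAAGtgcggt
Runx3: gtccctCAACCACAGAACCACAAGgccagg
The run begins 27 bases after the start site in Runx1, 22 bases after it in Runx2 and 136 bases before it in Runx3 (position -136). Of 32851 RefSeq windows of 300 bases, 4 held the run on either strand, in these 3 genes and in Gm16225. ACCACA or its complement TGTGGT occurred in 16.8% of all windows. The other window of Runx1 and that of Runx3 held neither. These matches describe the letters only, and UMIs taken at the 3′ end do not tell which start site a transcript used.

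A barcode with UMIs of at least 250 genes was taken as a cell, which gave 3846 cells: 378 (control) and 778 (injured) in round 1, 856 and 1834 in round 2. Depth was uneven, with a median of 836 to 7034 UMIs (distinct transcript molecules) per cell, and the control library of round 1 was deposited as 444 barcodes with at least 502 UMIs each, whereas the other 3 listed empty droplets too. In round 1, 159 of the 378 control cells carried a barcode that also had a similar or larger UMI count in the injured library. They made up 93 of the 195 control cells in the inner annulus class of that round and none of its 40 outer annulus cells, and the inner class comparison was repeated without them, with the values given beside it. All 8 genes had UMIs in each of the 4 libraries.

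Clustering without the 8 genes gave 19 clusters. Markers named 6 of them inner annulus or cartilage-like (2009 cells), 3 outer annulus or fibroblast-like (486 cells) and 1 nucleus pulposus-like (106 cells, the notochord-derived core of the disc). One inner cluster, led by M1ap and Fmod, tied with 4 markers of each annulus class. Different clusters filled a class in different libraries. For the inner class these were the Cnmd and Grem1 cluster in control round 2 (209 of 254 cells), the Hmga2 and Bmp2 cluster in control round 1 (77 of 195), the Mmp12 and Mmp3 cluster in injured round 1 (189 of 487) and the Saa1 and Chil1 cluster in injured round 2 (487 of 1073). Without the shared barcodes control round 1 kept 102 inner cells. Of these, 74 were in the Cnmd and Grem1 cluster, which was then the largest in both control libraries. The outer class was mostly the Myoc and Angptl7 cluster in control round 1 (34 of 40), injured round 1 (16 of 31) and control round 2 (48 of 55), and mostly the Aspn and Cthrc1 cluster in injured round 2 (244 of 360). Levels are UMIs of a gene per 1000000 UMIs (CPM) of the cells named, with exact 95% Poisson intervals that cover counting error only. They are not divided by transcript length, so levels are compared within a gene and not between genes.

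Sox9, the chondrogenic master regulator, was high in the inner annulus clusters and, among annulus clusters, lowest in the Aspn and Cthrc1 cluster, of whose 267 cells 244 came from injured round 2. Over all libraries, 90.7% of inner and 58.2% of outer annulus cells held a Sox9 UMI, against 6.77% of macrophage-like cells, at median depths of 5700, 6594 and 3303 UMIs per cell. Its level was 2551 CPM (2476 to 2627) in the Cnmd and Grem1 cluster, and 1568 to 1902 CPM in 4 further inner clusters. The intermediate values were 928 CPM (867 to 991) in the Myoc and Angptl7 cluster of the outer annulus and 817 CPM (785 to 851) in the tied M1ap and Fmod cluster, an order that was not the same in each library: the Myoc and Angptl7 cluster held 1754 against 603 CPM in injured round 1, but 667 against 845 CPM in injured round 2. Low values of 151 CPM (135 to 168) and 215 CPM (186 to 247) were found in the Aspn and Cthrc1 cluster and in the dividing outer cluster led by Hist1h2ap and Cenpf, and 3.91 CPM, 1 UMI, in endothelial-like cells. In injured round 2 these outer clusters held 149 and 136 CPM, no more than the 152 CPM (140 to 165) of empty droplets, which hold free RNA. Among the 9 annulus clusters, neighbours in this order with overlapping intervals were the Saa1, Mmp12 and Il11 clusters of the inner annulus. Sox9 in the nucleus pulposus-like cluster rested on 1 library, with 298 of 313 UMIs and 4758 CPM in control round 1 against 101 CPM in control round 2.

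**Figure D1:**
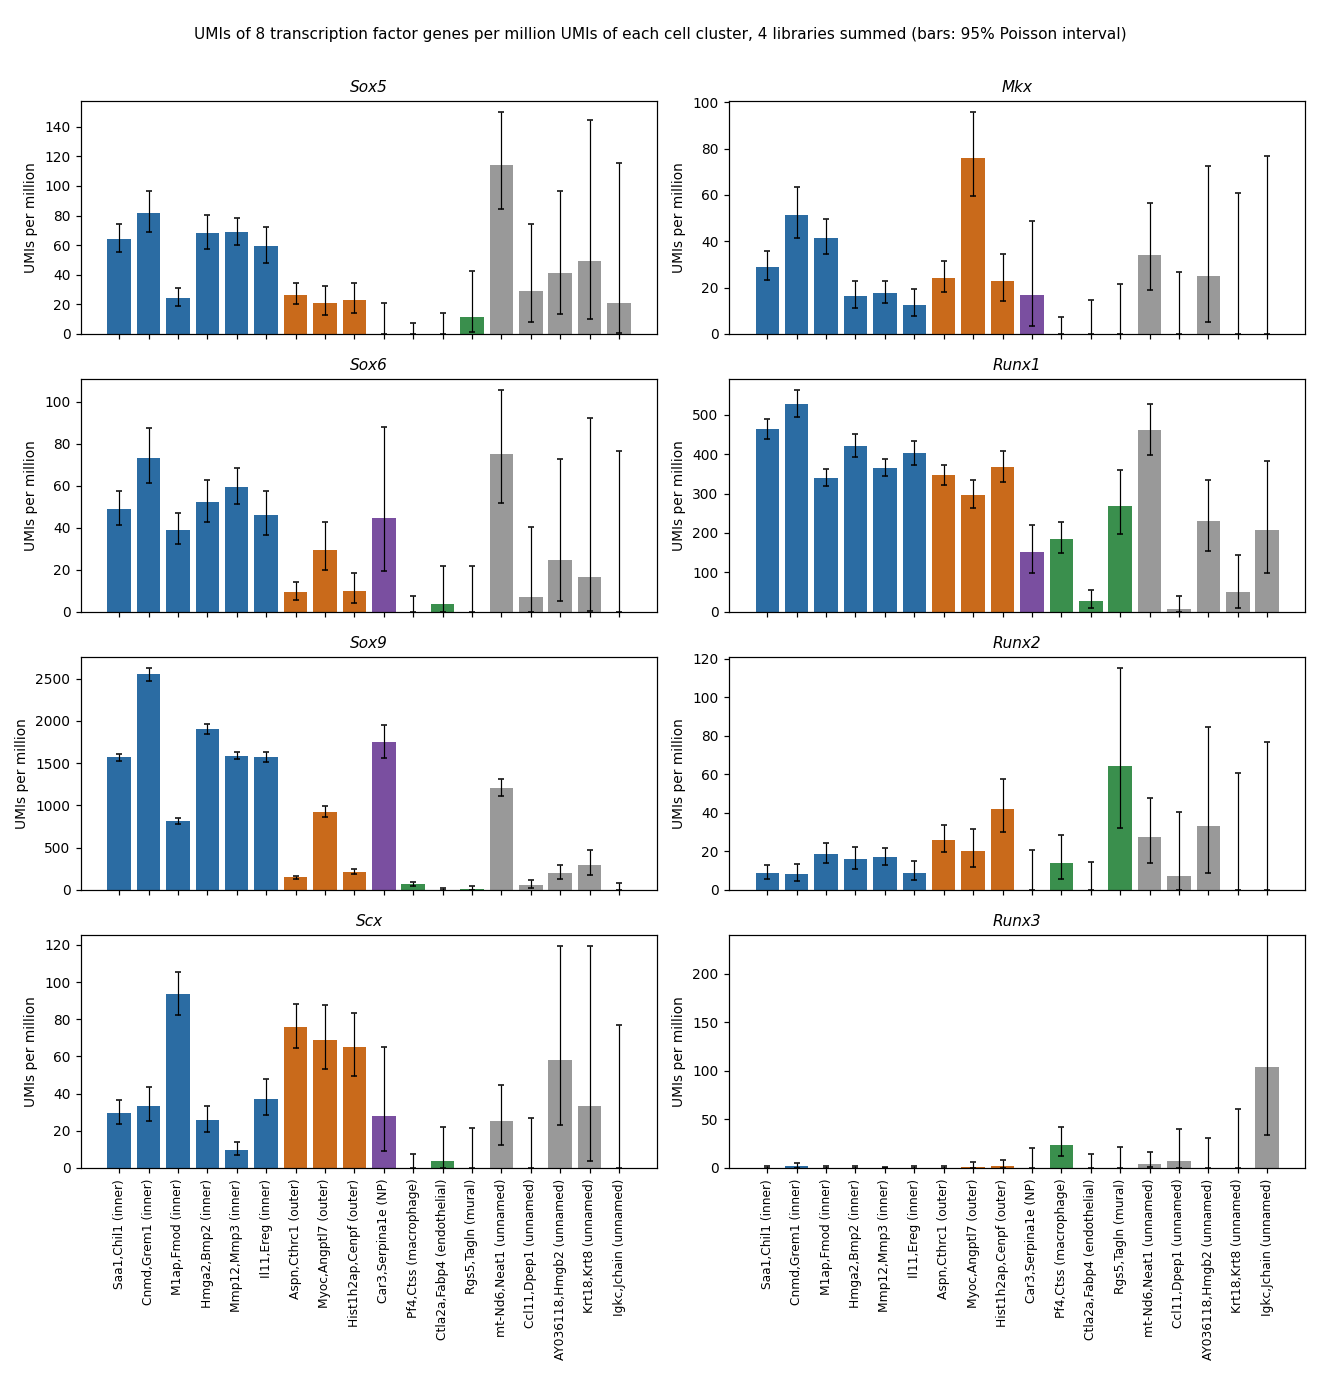
Level of each gene (UMIs per 1000000 UMIs, vertical axis from 0) in the 18 clusters of at least 39 cells, 4 libraries summed, with 95% Poisson intervals; labels give the leading genes and the class. Sox9 reached 2551 in the Cnmd,Grem1 cluster and 151 in the Aspn,Cthrc1 cluster, Scx was highest in the M1ap,Fmod cluster, Mkx in the Myoc,Angptl7 cluster, and Runx1 lay between 297 and 527 in all 9 annulus clusters.

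Sox5 and Sox6, the SOX9 partners, followed the same division. Sox5 lay between 59.3 and 82.0 CPM in 5 inner clusters, and between 21.2 and 26.4 CPM in the tied cluster and the 3 outer clusters. The tied cluster thus stood with the outer annulus for Sox5. For Sox6 the inner clusters held 39.1 to 73.4 CPM, the Myoc and Angptl7 cluster held 29.6 CPM, and the other outer clusters held 9.27 and 9.73 CPM. No Sox5 UMI was found in the 106 nucleus pulposus-like cells, which have a median of 1292 UMIs. That count allows a share of cells with a Sox5 UMI of up to 2.83% (3 counts; the exact 95% binomial upper bound is 3.42%), and Sox6 had 8 UMIs there. Of 545 inner annulus cells with Sox6, 195 also held Sox5, where 174 would be shared if detection of the genes were independent within each library and cluster. Deeper cells hold more of every gene, so this count is a description.

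Scx, the tendon progenitor factor, was spread over the fibrous side of the disc. Its level was highest in the tied M1ap and Fmod cluster at 93.3 CPM (82.5 to 105), followed by 75.6, 68.8 and 64.9 CPM in the 3 outer clusters, and neighbours in this order overlapped in their intervals. The other inner clusters held 9.83 CPM (Mmp12 and Mmp3) to 37.1 CPM (Il11 and Ereg). Injured round 2 held 320 of the 371 cells of the tied cluster, and within it Scx was again highest there, at 92.2 CPM against 80.6, 69.3 and 67.5 CPM in the outer clusters. The lowest of the inner clusters, that of Mmp12 and Mmp3, had 189 of its 250 cells in injured round 1, where it held 10.2 CPM. Of the 373 inner annulus cells with Scx, 359 also held Sox9, where 339.9 would be shared if detection were independent within each library and cluster. For outer cells the count went opposite ways in the 2 rounds, with 6 of 11 and 8 of 10 cells in round 1, where 9.38 and 8.87 would be shared, and 16 of 18 and 78 of 122 in round 2, where 12.9 and 62.6 would be. These counts are descriptions too, since depth differs between cells.

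Mkx, the tendon homeobox factor, was highest in a different cluster from Scx when libraries were summed. The Myoc and Angptl7 cluster held 76.2 CPM (59.6 to 95.9), the Cnmd and Grem1 cluster 51.4 CPM (41.3 to 63.3) and the tied cluster 41.5 CPM (34.4 to 49.6), and neighbours in this order overlapped. The remaining inner and outer clusters lay between 12.6 and 29.0 CPM. Control round 2 gave 47 of the 72 Mkx UMIs of the Myoc and Angptl7 cluster. In injured round 1 that cluster held 16.8 CPM from 2 UMIs, below the tied cluster at 39.6 CPM and the Cnmd and Grem1 cluster at 28.7 CPM, so the order did not hold in every library. No Mkx UMI was found in macrophage-like, endothelial-like or mural-like cells. In the outer class, 47 of 99 cells with Mkx also held Scx, where 33.2 would be shared if detection were independent within each library and cluster.

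Among the RUNX genes, Runx1 was spread over all annulus clusters, Runx2 summed over libraries was higher in the outer than in the inner clusters, and Runx3 had the most UMIs in macrophage-like cells. Runx1 had a UMI in 77.1% of inner and 76.3% of outer annulus cells, and its level ranged from 297 CPM in the Myoc and Angptl7 cluster to 527 CPM in the Cnmd and Grem1 cluster. This order did not hold in every library, since the Mmp12 and Mmp3 cluster was highest in control round 1 (633 CPM) and the Saa1 and Chil1 cluster in injured round 2 (467 CPM), and the Hmga2 and Bmp2 cluster was lowest in control round 1 (304 CPM) and the Il11 and Ereg cluster in injured round 1 (267 CPM). Without the shared barcodes control round 1 held 102 inner cells, 74 of them in the Cnmd and Grem1 cluster. Its order was not worked out again without them. Runx1 was 269 CPM in mural-like and 185 CPM in macrophage-like cells, above its level in empty droplets (42.5 to 120.1 CPM in the 3 libraries that list them). The 27.4 CPM of endothelial-like cells, from 7 UMIs, lay below that level. Runx2 lay between 8.09 and 18.7 CPM in inner clusters and between 20.1 and 42.2 CPM in outer ones, highest there in the dividing cluster, and reached 64.4 CPM (32.2 to 115) in the 39 mural-like cells, although the intervals of neighbours in this order overlapped. The mural-like value came from 11 UMIs in only 4 cells. By library, the inner and outer classes held 15.1 and 13.6 CPM in control round 1, 16.7 and 11.4 in injured round 1, 8.58 and 28.4 in control round 2, and 11.7 and 31.3 in injured round 2, so the outer class was higher only in round 2. Exons of Runx2 overlap those of its antisense gene Runx2os1, which had 256 UMIs in cells, and the strand setting of the counting is not given in the sources used here, so Runx2 values are uncertain. Runx3 had 28 UMIs in all cells, 12 of them in the 133 macrophage-like cells (23.9 CPM) and 5 in the 73 cells of an unnamed cluster led by Igkc and Jchain (104 CPM), against 5 UMIs in 2009 inner and 3 in 486 outer annulus cells. Of the macrophage-like UMIs, 10 came from 90 cells of injured round 2 (33.3 CPM) and 2 from 3 cells of control round 2, while the 39 cells of injured round 1 held none. In each of the 3 libraries that list empty droplets, both annulus classes lay below the Runx3 level of those droplets (6.51 to 28.6 CPM).

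The genes whose levels most resembled each factor over 17 clusters of at least 50 cells were found by Pearson's r of log2(CPM + 10) among 8009 genes. They were Tafa5 (r = 0.95), Upp2 (0.93) and Kif21a (0.93) for Sox9, and Pde4dip (0.94), Kif21a (0.92) and Tafa5 (0.92) for Sox6. Sox9 and Sox6 thus shared Tafa5 and Kif21a, and their own r was 0.93, whereas Sox5 was nearest to Polr3d (0.87), Col27a1 (0.84) and Exosc1 (0.84). Scx was nearest to Gpc1 (0.91), Slc1a4 (0.89) and Wnt9a (0.83), and Mkx to Arhgap44 (0.94), Bhlhe41 (0.92) and Comp (0.91), the last a matrix protein of cartilage and tendon. For Runx1 they were Ttc7 (0.89), Ndufc1 (0.88) and Fam20b (0.87), and for Runx2 Cep295 (0.88), Cad (0.87) and Mios (0.86). Clusters share libraries and differ in depth, so each r is a description.

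Injured and control discs were compared on sums of UMIs per library over the disc cells (inner, outer and nucleus pulposus-like), the inner class and the outer class, with edgeR's quasi-likelihood test and Benjamini-Hochberg adjustment over all genes tested. None of the 7 factors that passed the filter on low counts was called at an adjusted p under 0.05. The share of all genes called was 0.0178% of 11206 in disc cells, 0% of 10860 in the inner class and 1.8% of 5173 in the outer class, and 859, 797 and 696 genes had an unadjusted p under 0.05. Of the factors, 1 had an unadjusted p under 0.05, Mkx in the outer class. DESeq2 called 121, 97 and 94 genes and none of the factors. With round as a block in the model, which pairs discs of the same animals and leaves 1 residual degree of freedom, 4.43%, 8.55% and 10.1% of genes were called, and Mkx was 1 of 7 factors called in disc cells and 1 of 7 in the outer class. In the outer class a count of 1 in 7 is near the 10.1% of all genes, and it is no result about the factors as a set. Runx3 did not pass the filter in any of the sums. In each series of 4 values below, the control and injured libraries of round 1 come first and those of round 2 follow.

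**Figure D2:**
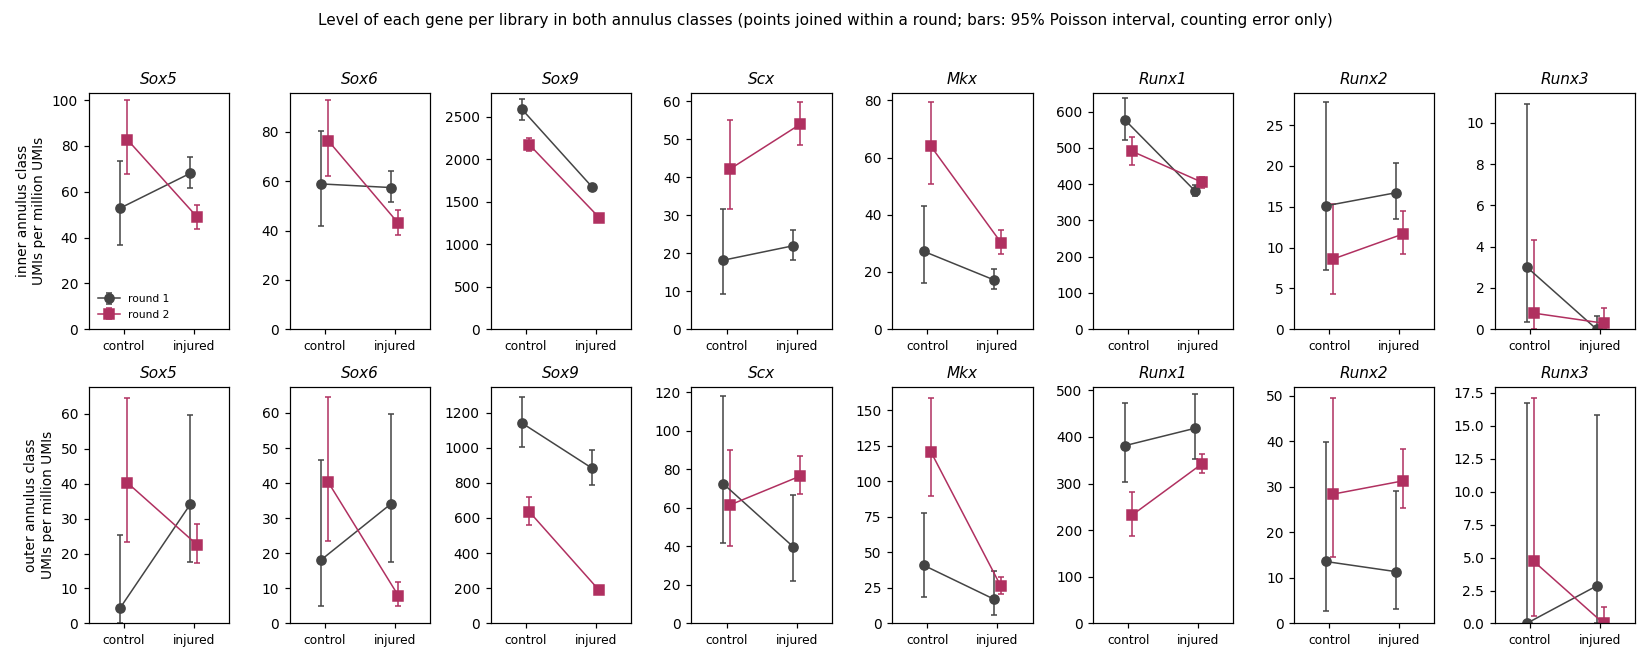
Level of each gene (UMIs per 1000000 UMIs, vertical axis from 0) in the inner (top) and outer (bottom) annulus class of each library, joined within a round (circles round 1, squares round 2), with 95% Poisson intervals. Sox9 and Mkx were lower in the injured library of both rounds in both classes, from 2585 to 1672 and 2173 to 1312 for Sox9 in the inner class, while Sox5 went opposite ways in the 2 rounds.

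Sox9 in the inner class was 2585, 1672, 2173 and 1312 CPM. Both injured libraries lay below both controls, with no overlap, and the ratio of injured to control was 0.647 (0.614 to 0.681) in round 1 and 0.604 (0.579 to 0.630) in round 2. The difference was a log2 fold change of -0.55 ± 0.39 (SE, 2 libraries per group; edgeR adjusted p = 0.812), and without the shared barcodes the round 1 ratio was 0.601 and the log2 fold change -0.59. Sox9 was lower in the outer class too, at 1139, 883, 637 and 188 CPM, where the groups overlapped because injured round 1 exceeded control round 2. Its log2 fold change there was -0.81 ± 0.64 (edgeR adjusted p = 0.653), and -1.11 ± 0.39 with round as a block (edgeR adjusted p = 0.0641, the lowest over the settings run, which reached 1.0). The difference between the classes was -0.57 ± 0.60 (edgeR interaction test, adjusted p = 0.864, with 0.122% of 9052 genes called), but -1.59 and called without injured round 1 (edgeR adjusted p = 8.7e-04) and 0.46 without injured round 2. With all libraries kept it was 0.70 at a coarser clustering (Leiden resolution 0.5), where the outer class held only 6, 15, 7 and 321 cells. The sign of the difference thus rested on single libraries and on how the classes were drawn.

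Within the single clusters that every library filled, Sox9 was not lower in the injured library of both rounds. In the Cnmd and Grem1 cluster, the inner cluster with at least 20 cells in every library, Sox9 was 3139, 3603, 2313 and 1876 CPM. The ratio was above 1 in round 1 (1.15, 1.04 to 1.27) and below 1 in round 2 (0.811, 0.732 to 0.897), and the log2 fold change was 0.032 ± 0.50 (edgeR adjusted p = 1.0, with 0% of 4522 genes called and 69 at an unadjusted p under 0.05). In the Myoc and Angptl7 cluster Sox9 was 1281, 1754, 667 and 667 CPM, with ratios of 1.37 (1.13 to 1.65) and 1.00 (0.819 to 1.22) and a log2 fold change of 0.42 ± 0.50 (edgeR adjusted p = 1.0, with 0% of 3061 genes called and 84 at an unadjusted p under 0.05). The Cnmd and Grem1 cluster made up 74 of 195, 26 of 487, 209 of 254 and 75 of 1073 inner cells, and the Myoc and Angptl7 cluster 34 of 40, 16 of 31, 48 of 55 and 38 of 360 outer cells. Both were a smaller part of their class in the injured library of each round, and the part of this shift in the class values was not tested. Before thinning, 71.8%, 94.9%, 87.8% and 92.9% of inner annulus cells held a Sox9 UMI, in the same order of libraries. After thinning each cell to 2000 UMIs, which left out 101, 23, 44 and 105 shallower cells, the shares were 90.4%, 80.0%, 85.2% and 82.9%. The exact 95% binomial intervals after thinning overlapped between control and injured in both rounds (82.6% to 95.5% and 76.0% to 83.5% in round 1, 79.7% to 89.7% and 80.3% to 85.2% in round 2), so no difference in these shares is read.

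The rounds went opposite ways for Sox5 in both classes and for Sox6 in the outer class. Sox5 in the inner class was 52.9, 68.1, 82.7 and 48.8 CPM, so it was higher in the injured library of round 1 and lower in that of round 2. Its log2 fold change was -0.09 ± 0.39 (edgeR adjusted p = 0.979), and the sign turned when either round 2 library was left out. Sox6 was 58.9, 57.5, 76.4 and 43.0 CPM, with both injured libraries below both controls but nearly level in round 1, and its log2 fold change was -0.31 ± 0.37 (edgeR adjusted p = 0.901). Without the shared barcodes the inner log2 fold changes of Sox5 and Sox6 were -0.12 and -0.35, and the round 1 ratios 1.22 and 0.896. In the outer class Sox6 rested on 4, 12, 17 and 24 UMIs and Sox5 on 1, 12, 17 and 68 UMIs. Both were higher in the injured library of round 1 and lower in that of round 2, with ratios of 1.88 (0.570 to 8.01) and 0.197 (0.101 to 0.390) for Sox6. Outer Sox6 was close to its level in empty droplets of the same library in both injured libraries, at 34.2 against 29.2 CPM in round 1 and 7.91 against 7.60 CPM in round 2, whereas in control round 2 it was 40.2 against 9.85 CPM.

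Mkx was lower in the injured library of both rounds in each of the 3 sums, and it was the 1 factor called with round as a block. In the outer class its level was 40.9, 17.1, 121 and 26.0 CPM, from 9, 6, 51 and 79 UMIs. Both injured libraries lay below both controls without overlap, although control round 2 alone held most of the control UMIs. The log2 fold change was -1.89 ± 0.57 (edgeR adjusted p = 0.145) without a block and -1.98 ± 0.47 (edgeR adjusted p = 0.00488) with it, where 5.06% of genes were called lower. Over all settings the adjusted p ran from 0.00488 to 1.0, the latter in the Myoc and Angptl7 cluster alone, and without control round 1 the difference was called with no block (-2.41, edgeR adjusted p = 0.0102). It was also called with no filter on low counts (-1.82, edgeR adjusted p = 0.0498, where 1.88% of 16795 genes were called). Without control round 2 it was -0.90 (edgeR adjusted p = 0.802).

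Over the disc cells Mkx was 31.8, 17.2, 73.4 and 29.0 CPM. The lower control, 31.8, was close to the higher injured library, 29.0, so the groups were separate by a narrow margin. The log2 fold change was -1.12 ± 0.50 (edgeR adjusted p = 0.677) without a block and -1.08 ± 0.27 (edgeR adjusted p = 0.0475) with it, where 2.24% of genes were called lower; over all settings the adjusted p ran from 0.0475 to 0.986. The call with the block was lost when the shared barcodes were left out (-1.09, edgeR adjusted p = 0.0904). Without control round 2 and with no block the log2 fold change was -0.40. In the inner class the values were 27.2, 17.2, 64.0 and 30.3 CPM, with overlapping groups and a log2 fold change of -0.81 ± 0.51 (edgeR adjusted p = 0.769), or -0.81 without the shared barcodes. The difference between the classes was -1.19 ± 0.47 on the log2 scale (edgeR interaction test, adjusted p = 0.497), so it was not shown to be larger in the outer class. Within the Myoc and Angptl7 cluster Mkx was 42.0, 16.8, 122 and 59.6 CPM, from 8, 2, 47 and 15 UMIs, and the ratios were 0.400 (0.0413 to 2.00) and 0.487 (0.253 to 0.886). The log2 fold change in that cluster was -0.85 ± 0.63 (edgeR adjusted p = 1.0), and -0.91 ± 0.50 with the block (edgeR adjusted p = 0.686), so neither the call nor the size of the outer class was found there. The Cnmd and Grem1 cluster held Mkx at 28.1, 28.7, 67.0 and 40.7 CPM, level in round 1 (ratio 1.02, 0.274 to 3.28), with a log2 fold change of -0.46 ± 0.64 (edgeR adjusted p = 1.0).

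**Figure D3:**
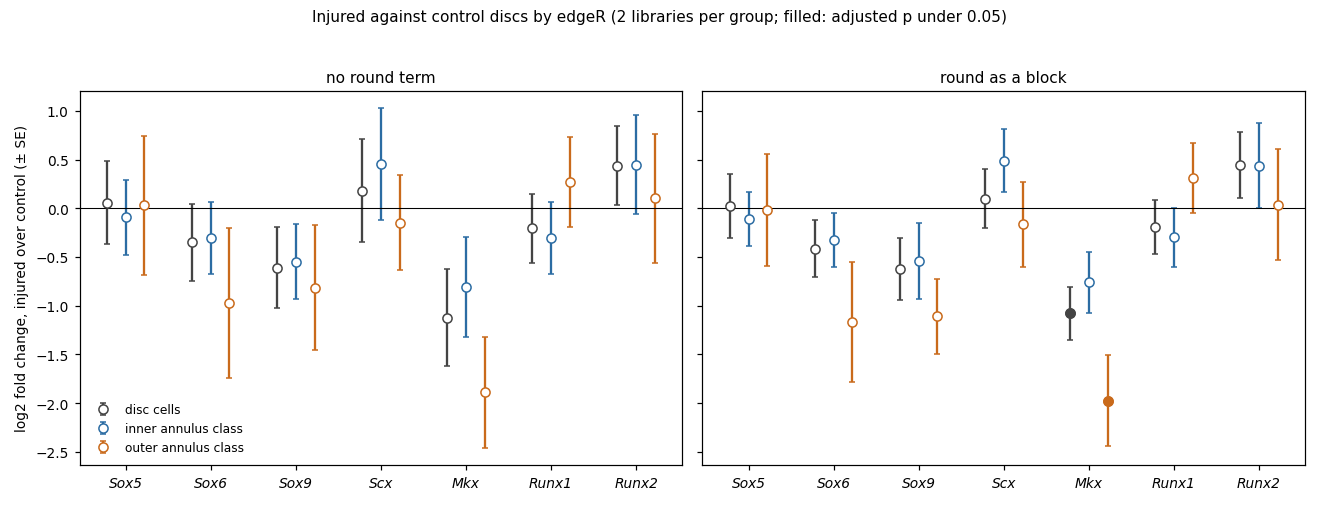
Log2 fold change of injured over control (± SE, 2 libraries per group) for the 7 factors tested, in disc cells (grey), the inner class (blue) and the outer class (orange), without a round term (left) and with round as a block (right); filled points have an edgeR adjusted p under 0.05. Only Mkx on the right is filled, at -1.08 in disc cells and -1.98 in the outer class.

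Scx did not share the direction of Mkx in both rounds. In the outer class Scx was 72.6, 39.9, 61.5 and 76.5 CPM, lower in the injured library of round 1 and higher in that of round 2, and its log2 fold change was -0.15 ± 0.49 (edgeR adjusted p = 0.928). Its inner values of 18.1, 21.9, 42.1 and 53.9 CPM were higher in the injured library of each round, with a larger gap between rounds than between groups (log2 fold change 0.46 ± 0.58, edgeR adjusted p = 0.906, or 0.45 without the shared barcodes). Without the tied M1ap and Fmod cluster the disc-cell log2 fold change of Scx went from 0.18 to -0.046.

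Runx1 in the inner class was 577, 382, 491 and 405 CPM. Both injured libraries lay below both controls, with ratios of 0.661 (0.593 to 0.739) and 0.826 (0.757 to 0.902), and the log2 fold change was -0.31 ± 0.37 (edgeR adjusted p = 0.901), or -0.32 without the shared barcodes. Outer values of 381, 419, 232 and 342 CPM were higher in the injured library of each round but overlapped between groups (0.27 ± 0.46, edgeR adjusted p = 0.856). The opposite signs in the classes did not pass the test of their difference (0.60 ± 0.40, edgeR adjusted p = 0.750). Within the Cnmd and Grem1 cluster Runx1 was 570.0, 855, 499.5 and 342 CPM, so the rounds went opposite ways there.

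Runx2 in the inner class was 15.1, 16.7, 8.58 and 11.7 CPM, from 10, 96, 11 and 80 UMIs. It was higher in the injured library of each round, but the intervals of both ratios, 1.11 (0.576 to 2.38) and 1.36 (0.720 to 2.83), included 1, and the log2 fold change was 0.45 ± 0.51 (edgeR adjusted p = 0.893). Without the shared barcodes round 1 was level, with a ratio of 0.990 (0.516 to 2.13), the 1 factor whose inner round 1 ratio changed side, and the log2 fold change was 0.38. The outer values given above differed more between rounds than between groups. Its antisense partner Runx2os1 had 2, 79, 11 and 100 UMIs in the inner class, or 3.02, 13.8, 8.58 and 14.6 CPM, also higher in the injured library of each round. Runx3 had 2, 0, 1 and 2 UMIs in the inner class and 0, 1, 2 and 0 in the outer class, and the 0 in injured round 1 allows a level of up to 0.522 CPM in the inner class, taken as 3 counts.

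Cartilage matrix genes known to be under SOX control were described next to their factors, from a list of 20 genes of which 12 also served as markers of the inner class. Without a block, 0 of 19 tested genes were called in the inner class, while 8 had an unadjusted p under 0.05. With round as a block, 5 were called higher and 6 lower in injured discs, and the list's median log2 fold change of 0.19 stood beside -0.042 for all genes tested, of which 4.39% were called higher and 4.16% lower. The median had the other sign in the other sums with the block, at -0.12 in disc cells (4 higher and 4 lower of 19, or 2 and 3 without the shared barcodes) and -0.60 in the outer class (1 higher and 0 lower of 13). Of all genes, 4.43% were called in either direction in disc cells, or 235 of 11185 without the shared barcodes. In the outer class 5.05% were called higher and 5.06% lower, so the 1 of 13 there is near the share and is no result about the list. Called higher in the inner class were the fibrillar collagens Col2a1 (2.17 ± 0.49, edgeR adjusted p = 4.2e-04), Col11a1 (1.60) and Col11a2 (1.43), the link protein gene Hapln1 (1.205) and the proteoglycan gene Epyc (1.98). Lower were the matrilin gene Matn3 (-4.13), Ucma (-2.74), the chondromodulin gene Cnmd (-2.54), the collagen IX genes Col9a3 (-1.02) and Col9a2 (-0.98), and Snorc (-0.89). Some of these genes also named the clusters that filled the class in different libraries. The Saa1 and Chil1 cluster was named by Col2a1, Acan, Col11a1 and Hapln1, and the Cnmd and Grem1 cluster by Comp, Cnmd, Chad and Ucma. The part of this cluster makeup in the calls was not tested. Without the shared barcodes the block again called 5 higher and 6 lower, and all list genes called with it in the inner class, here and below, were called in the same direction.

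Col2a1, the main cartilage collagen, was 1463, 6154, 2035 and 8097 CPM in the inner class. Its injured libraries lay above both controls while those of Sox9 lay below them. Cnmd, at 228, 35.7, 345 and 53.9 CPM, and Matn3, at 55.9, 0.696, 17.9 and 2.48 CPM, separated the groups in the same direction as Sox9. Aggrecan (Acan) was 1435, 2430, 1541 and 2331 CPM and was not called (0.81 ± 0.39, edgeR adjusted p = 0.199 with the block). Comp, at 2416, 977, 1200.5 and 1755 CPM, and the matrix gene Chad, at 2673, 1657, 1216 and 2124 CPM, were lower in the injured library of round 1 and higher in that of round 2, and neither was called with or without the block. Of 10 other SOX genes, 2 were tested in the inner class, and Sox8, a close relative of Sox9, was called lower with the block at 7.55, 0.348, 24.96 and 6.41 CPM (-2.18 ± 0.54, edgeR adjusted p = 0.00186), from 5, 2, 32 and 44 UMIs, where 4.16% of all genes were called lower. Sox4, the other one tested, was 37.8, 37.4, 73.3 and 21.3 CPM and was not called. Over the disc cells the block called 1 of 3 tested genes of this list lower, and 0 without the shared barcodes.

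**Figure D4:**
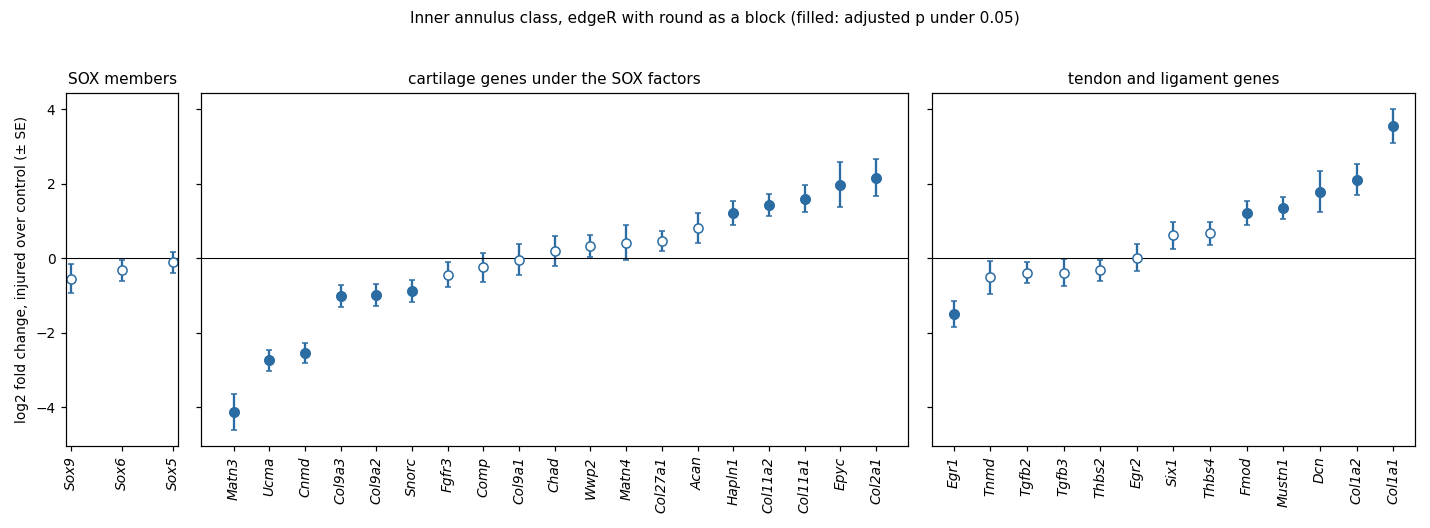
Log2 fold change of injured over control (± SE) in the inner annulus class with round as a block, for Sox9, Sox6 and Sox5 (left), 19 cartilage genes under SOX control (middle) and 13 tendon and ligament genes (right); filled points have an edgeR adjusted p under 0.05. The middle panel runs from Matn3 at -4.13 to Col2a1 at 2.17, while the 3 SOX genes lie between -0.54 and -0.11 and are open.

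Tendon and ligament genes were followed as the setting of Scx and Mkx, with 16 genes listed, 5 of them markers of the outer class. In the inner class none of 13 tested was called without a block, although 5 had an unadjusted p under 0.05, and with it 5 were higher (Col1a1, Col1a2, Dcn, Fmod and Mustn1) and 1 was lower, the early response gene Egr1, a factor that acts in tendon, beside 4.39% of all genes called higher and 4.16% lower. The list's median log2 fold change with the block was 0.62 there, against -0.057 in disc cells and -0.30 in the outer class. Col1a1, the main collagen of tendon and scar, was 397, 3487, 361 and 4708 CPM in the inner class (3.56 ± 0.45, edgeR adjusted p = 1.6e-12 with the block). Decorin (Dcn), which binds collagen fibrils, was 4843, 11943, 3119 and 12473 CPM in the inner class, and both injured libraries lay above both controls (1.79 ± 0.56, edgeR adjusted p = 0.0221 with the block). In the outer class the block called Col1a1 higher (1.55) and Egr1 lower (-1.38) among 13 tested, where 5.05% of all genes were called higher and 5.06% lower. Counts of 1 in 13 are near these shares and are no result about the list. Egr1 in the outer class was 749, 527, 1259 and 288 CPM, below control in both rounds and without overlap, as for Mkx.

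SCX binds DNA with the E proteins Tcf3, Tcf4 and Tcf12, and the ID proteins withhold those partners. Of the 9 genes on this list, 8 were tested in the outer class and 1 was called without a block: Id4 was 118, 37.0, 166 and 20.4 CPM, lower in both injured libraries (-2.47 ± 0.50, edgeR adjusted p = 0.0342), where 0.483% of genes were called lower. That call was lost without injured round 1 (edgeR adjusted p = 0.400), without control round 2 (0.0807) and without injured round 2 (0.173), while the log2 fold change stayed between -2.82 and -2.08 over all settings run. With the block Id4 (-2.53), Id1 (-1.22) and Tcf4 (-1.21) were called lower, 3 of 8 beside 5.06% of all genes. In the inner class none of the 9 was called without the block and none had an unadjusted p under 0.05, and Id4 was called lower with it at 48.4, 29.2, 204 and 94.4 CPM (-0.80). A count of 1 in 9 is near the 8.55% of all genes called in that fit and is no result about the list. The ID genes Id1, Id2 and Id3 had inner log2 fold changes of -0.15, 0.21 and -0.14 without the block. Among 20 patterning factors, 14 of them tested in the outer class, Gli2, a transcription factor of hedgehog signalling, was called without a block from 7, 2, 17 and 7 UMIs (-3.61 ± 0.76, edgeR adjusted p = 0.0411), a call lost when any 1 library was left out (0.301 to 0.761), with a log2 fold change of -3.94 to -2.74 over all settings run. It was called with the block as well, where Pax1 (-1.52), a factor of the developing vertebral column and disc, and Zbtb20 (-1.19) were also lower and Prrx1 (1.43), a mesenchymal factor, was higher, beside 10.1% of all genes called in either direction. In the inner class none of 17 patterning factors was called without a block, 4 had an unadjusted p under 0.05, and the block called Prrx1 (1.53) and Prrx2 (1.12) higher and Nfia (-1.01), Zbtb20 (-1.02) and Gli1 (-2.59) lower, beside 8.55% of all genes. Pax1, Foxc1 and Trps1, also among the most abundant of these factors, had inner log2 fold changes of 0.18, 0.15 and -0.0061 without it.

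RUNX1, RUNX2 and RUNX3 act with shared partners. Of 15 listed partners and co-repressors, 14 were tested in the inner class with 0 called and 0 at an unadjusted p under 0.05 without a block, and 1 called with it, the co-repressor Tle4 (-0.90 ± 0.26, edgeR adjusted p = 0.0133). A count of 1 in 14 is near the 8.55% of all genes called in that fit and is no result about the list. Cbfb, the common partner, was 124, 90.01, 57.7 and 43.2 CPM, lower in the injured library of each round with overlapping groups (-0.31 with the block, edgeR adjusted p = 0.561). Without the block, the co-repressor gene Tle5 and the coactivator gene Wwtr1 had log2 fold changes of -0.070 and -0.18. Of 16 bone and hypertrophy genes under RUNX control, 7 of which were bone markers, 8 were tested in the inner class and the block called 2 lower, Ibsp (-3.84) and Alpl (-6.02). Without the block 0 of the 8 were called and 2 had an unadjusted p under 0.05, and Spp1, Mmp13 and Vegfa had log2 fold changes of 0.38, -0.046 and -0.64. Ibsp and Alpl were high in control round 1: Ibsp was 1002, 20.7, 36.7 and 9.90 CPM, and the 8 bone markers summed to 1156 CPM there against 28.4 to 66.3 CPM in the other libraries, with Bglap at 0 in it. The part of this library in the 2 calls was not tested.

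Markers of other cells were summed in both annulus classes. The 11 macrophage markers summed to 10.1 to 22.7 CPM in the inner and 2.37 to 36.6 CPM in the outer class, and Adgre1 was at 0 in all 8 sums. The 8 endothelial markers summed to 11.7 to 39.3 CPM in the inner and 0 to 17.8 CPM in the outer class, and Emcn was at 0 in all 8. Neutrophil markers reached 74.0 CPM in the outer class of injured round 1, where 2 of 6 were found. Mural markers in the outer class summed to 16.6 to 22.8 CPM in 3 libraries and to 107 CPM in injured round 2, where Rgs5 and Kcnj8 were at 0. That library also had the highest outer Runx2, and the part of these markers in it was not tested. The 8 bone markers in the outer class summed to 515 CPM in injured round 1, where 4 were found, against 5.60 to 82.8 CPM in the other libraries. In droplets with at most 100 UMIs, which hold free RNA, Sox9 was 152 to 230 CPM in the 3 libraries that list them, below the inner class in each and close to the 188 CPM of the outer class in injured round 2, where it was 152 CPM.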

How the data were processed

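The deposited values are UMI counts for each gene in each barcode. The authors mapped to mm10 and counted with Cell Ranger, version 6.0.0 for control round 1 and version 4 for the others, per the submitters' processing notes. Library totals were 1114210, 8943537, 9891258 and 16972879 UMIs (control 1, injured 1, control 2, injured 2). Cells had at least 250 genes and genes at least 5 cells, as the series text states. Counts were scaled to 10000 per cell, and the 2000 most variable genes, without the 8 factors, gave 30 principal components and a graph of 20 neighbours, partitioned by the Leiden method at resolution 1 (scanpy 1.11.5, leidenalg 0.10.2).

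Clusters were given the class with most markers (at least 3, each in 25% of cells and at 1.2 times the mean of the rest). A cluster stayed unnamed where its top genes or UMI depth went against this or over 50% of its control 1 cells had shared barcodes. Scrublet called 11 doublets, too few to be relied on, and doublets were kept. Sums per library were tested two-sidedly with edgeR 4.0.16 (TMM, filterByExpr), a step that was tested on simulated data; DESeq2 1.42.0 was an alternative. CPM uses the total UMIs of the cells summed.

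Rounds pair the libraries because control and injured discs came from the same animals per the labels; deviations from group means of same-round libraries correlated across genes with r = 0.463 (disc cells), 0.531 (inner) and 0.314 (outer), over only 2 pairs. Interactions had library as a block. The text names all 8 factors, the list genes called in any of the 3 sums without a block, the 4 of each list with the highest level and the 3 nearest pattern genes. List genes called only with the block were named after their values were seen. The members and lists were chosen with earlier results of these data known.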

Additional observations from a re-analysis of the deposited data

How the results depend on the processing

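Counts of called genes moved with the settings. With the replicate block, which pairs the rounds, 496 genes were called in disc cells, 929 in the inner class and 523 in the outer class, against 2, 0 and 93 without it, and the interaction went from 11 to 0 without its library block. DESeq2 called 121 (disc), 97 (inner) and 41 (interaction). No filter on low counts gave 299, 154, 315 and 168. A minimum of 500 genes gave 0 (disc), 14 (inner) and 23 (interaction), under 10% mitochondrial UMIs gave 0, 14 and 20, and leaving out shared barcodes gave 8 (inner) and 18 (interaction). The interaction count was 25 without Scrublet doublets, 29 at Leiden resolution 0.5, 61 with the factors among the variable genes and 21 with the cluster of low UMIs named, and resolution 0.5 left 7 calls in the outer class. Leaving out 1 library gave 0 to 111 in disc cells, 49 to 120 in the inner class, 0 to 184 in the outer class and 1 to 591 for the interaction. The lone library of an arm was then assumed to vary like the other group. The cause of these moves was not tested.

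Leaving out the libraries' shared barcodes together with the replicate block gave 235 (disc) and 971 (inner). For the factors, Id4 and Gli2, under settings that kept all libraries, 351 log2 fold changes kept their direction and side of the threshold, 18 changed sign, 3 gained a call and 3 lost one. With 1 library left out, 92 kept both, 18 changed sign, 2 gained a call and 7 lost one. Sox5 in disc cells turned under 10% mitochondrial UMIs (-0.026), and in the inner class at resolution 0.5 (0.12), without the tied cluster (0.046), with no filter (0.027) and in the Cnmd and Grem1 cluster alone (0.10). In the outer class Sox5 turned under 10% mitochondrial UMIs (-0.035), with the factors among the variable genes (-0.10), with the low-UMI cluster named (-0.035) and with the replicate block (-0.019). Without the tied cluster Scx in disc cells was -0.046. In single clusters Sox9 was 0.032 (inner) and 0.42 (outer) and Runx1 0.17. Interactions turned at resolution 0.5 for Sox5 (-0.049), Sox6 (0.53), Sox9 (0.70) and Scx (2.39), and without the tied cluster for Runx2 (0.012). At resolution 0.5 the outer class held only 6 cells in control round 1 and 7 in control round 2. Mkx in the outer class was called with no filter on low counts (edgeR adjusted p = 0.0498), and Gli2 was not under 10% mitochondrial UMIs (0.0530), with the factors among the variable genes (0.0567) or with DESeq2 (0.0999). The replicate block changed no call of a factor other than Mkx, whose call in disc cells was lost again without the shared barcodes (edgeR adjusted p = 0.0904).

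With 1 library left out, signs turned within these ranges. Sox5 ran from -0.30 to 0.53 in disc cells, from -0.32 to 0.24 in the inner class, from -0.60 to 2.48 in the outer class and from -0.29 to 2.25 for the interaction. Scx ran from -0.72 to 0.73 in disc cells, from -0.42 to 1.1996 in the inner class and from -0.88 to 0.18 in the outer class. Runx1 ran from -0.39 to 0.048 in disc cells and from -0.082 to 0.90 in the outer class, and Runx2 from -0.26 to 0.73 in the outer class. Interactions ran from -1.56 to 0.31 for Sox6, from -1.59 (without injured 1, called) to 0.46 for Sox9 and from -1.69 to 0.75 for Runx2. Thinning or a minimum of 500 genes moved 52 of 128 shares of cells beyond their 95% binomial intervals. Low counts limit Runx3, Runx2 and, in the round 1 outer class of 40 and 31 cells, Sox5, Sox6 and Mkx. Alternatives using the block without shared barcodes, the UMI minimum, the tied or low-UMI cluster and single clusters were chosen after seeing the data.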

Other observations

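In empty droplets, those with at most 100 UMIs, Runx3 was higher than in cells. It was 28.6 CPM (20.8 to 38.4, 44 UMIs) in injured round 1, where all cells together held 0.297 CPM, 8.76 CPM in control round 2 against 3.70 CPM in cells, and 6.51 CPM in injured round 2 against 1.23 CPM. Runx2 showed the same order in injured round 1, at 32.5 CPM (24.1 to 42.8) in droplets against 17.8 CPM in cells, and the reverse order in the other 2 libraries. For Sox9, Sox5, Mkx, Scx, Sox6 and Runx1 the level in droplets was below that in all cells together in each of the 3 libraries.

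An unnamed cluster led by mitochondrial genes and Neat1 (337 cells, median 21.3% mitochondrial UMIs) held Sox5 at 114 CPM (84.5 to 150) and Sox6 at 75.2 CPM (51.7 to 106). These were the highest cluster values of both genes with libraries summed. Both intervals overlapped those of the Cnmd and Grem1 cluster, at 82.0 CPM (69.1 to 96.7) for Sox5 and 73.4 CPM (61.2 to 87.3) for Sox6. In the unnamed cluster the Sox9 level of 1207 CPM and the Runx1 level of 460 CPM lay within the range of the inner annulus clusters. The unnamed cluster stayed outside the annulus classes because it held fewer than 3 markers.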
